A study of Mus musculus with 6 samples.

Results

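Type 2 conventional dendritic cells were sought among CD45+ cells of mouse liver with 4T07 metastasis by a rule on the deposited scaled expression values. A cell was a member when the mean score of the genes Cd209a, Clec10a, Flt3 and Zbtb46 was above 1.5, the mean score of the type 1 dendritic cell genes Xcr1, Clec9a, Wdfy4 and Naaa was at or below 1.5, and both Siglech and Cd79a were below 1. The rule found 479 of 23008 cells (2.08%). Its genes were not the same at every site. The matrices of adjacent tissue and micrometastasis held Cd209a, Clec10a and Flt3, the macrometastasis matrix held Clec10a and Flt3, and Zbtb46 was used at no site. Of the type 1 genes, every matrix held Clec9a and Naaa. Wdfy4 was held in adjacent tissue and micrometastasis only, and Xcr1 in macrometastasis only.

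Conventional dendritic cells take up antigen, carry it on class II molecules and present it to T cells. Type 2 cells, marked in the mouse by lectins such as Cd209a and Clec10a, are known for presentation to CD4+ T cells, and type 1 cells, marked by Xcr1 and Clec9a, for cross-presentation to CD8+ T cells. The growth factor receptor Flt3 is carried by dendritic cells of every subset and by their bone marrow precursors, and Clec10a is also known from macrophages.

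The 4T07 line is a mouse mammary tumour line. It carried either a control vector (Ctrl) or a knockdown of Tim3 (Tim3-KD) and was injected into the heart of Balb/c mice, so that the modification lay in the tumour cells and the immune cells came from the host. Adjacent tissue (AT) free of tumour and micrometastasis (Micro) were taken on day 3 and macrometastasis (Macro) on day 12. There were 6 libraries, 1 for each site and tumour line, each a pool of mice. With 1 library per group no difference between groups could be tested. Intervals below are 95% intervals for counting error only, and levels are UMIs per 1000000 UMIs of the cells named (CPM). Fewer cells of a type and a different makeup of the sorted piece cannot be told apart.

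The libraries held 542 to 5502 cells with a median of 6300 to 10248 UMIs per cell, and the AT Tim3-KD library was the smallest, with 542 cells. Of the barcodes, 58 occurred in 2 libraries and 1 in 3, and no member shared its barcode with another member. The gene positions in GRCm38 were chromosome 8, 3743397 to 3748984 (minus strand) for Cd209a, chromosome 11, 70156197 to 70170834 (plus strand) for Clec10a and chromosome 5, 147330741 to 147400489 (minus strand) for Flt3.

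The members did not form 1 kind of cell. They fell into 3 kinds when the UMIs of the class II genes H2-Aa, H2-Ab1 and H2-Eb1 and of 7 macrophage genes (C1qa, C1qb, C1qc, Vsig4, Cd5l, Clec4f and Timd4) were read in each cell. At least 20 UMIs per 10000 of the macrophage genes made a macrophage-gene member. The remaining cells were class II-high members with at least 20 class II UMIs per 10000 and class II-low members with fewer. These limits were set after the values had been seen. Few cells lay near them: 1 member of Micro Ctrl and none in the other 5 libraries had 10 to 40 macrophage UMIs per 10000, and, macrophage-gene members aside, 0 to 5 members per library had 10 to 40 class II UMIs per 10000.

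The label goes with class II transcripts and without macrophage genes, and by these limits it could apply to the class II-high members, which were 156 of 479 (32.6%). The class II-low members were 173 (36.1%) and the macrophage-gene members 150 (31.3%). The median class II level of the class II-high members was 145 UMIs per 10000 in AT Ctrl, 229 and 265 in Micro Ctrl and Tim3-KD, and 170 and 179 in Macro Ctrl and Tim3-KD. Their median of macrophage genes was 0 in each of these libraries. Both values follow from the limits and are no check of the label. The class II-high members are described first below, and the other kinds by their genes.

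**Figure D1:**
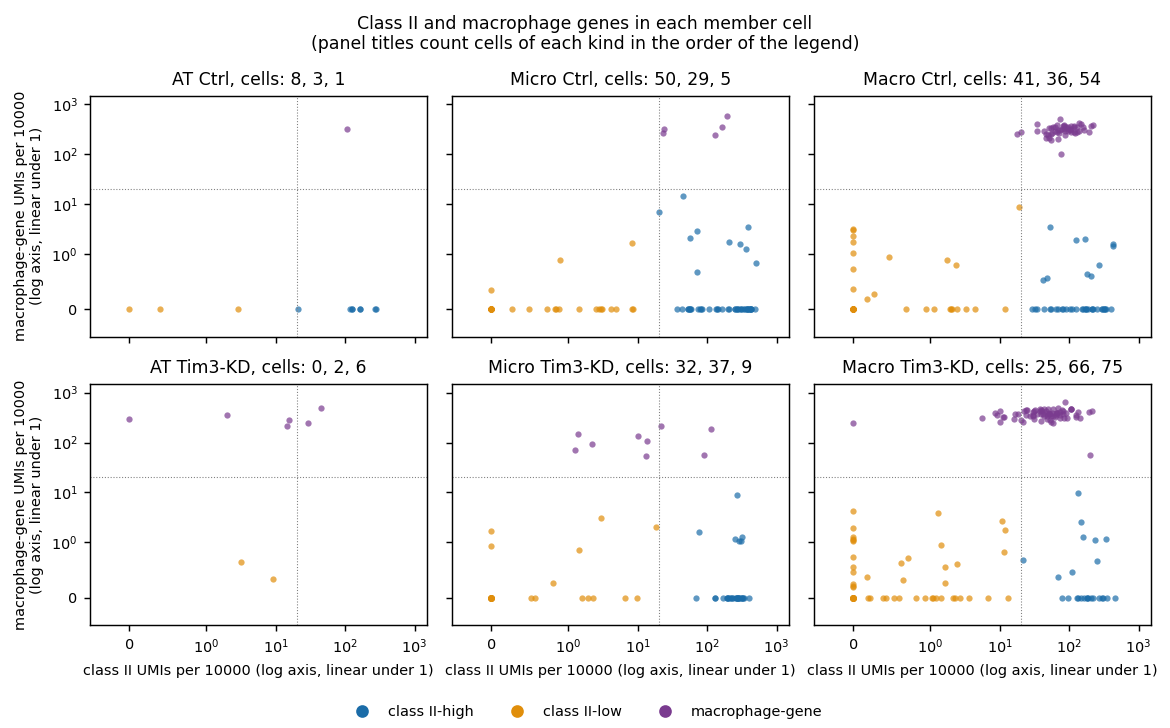
Each point is 1 member cell, with class II UMIs (H2-Aa, H2-Ab1, H2-Eb1) on the horizontal axis and UMIs of 7 macrophage genes on the vertical axis, both per 10000 UMIs of the cell on log axes that are linear under 1, and dotted lines at 20. The macrophage-gene members lie apart from the others, they make a dense group in both Macro libraries (54 and 75 cells), and AT Tim3-KD has no class II-high member.

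The genes of the rule, which chose the cells and are given as a description, were held unequally by the 3 kinds. Cd209a, a C-type lectin, was at 513 CPM in class II-high members of AT Ctrl, at 295 CPM in Micro Ctrl and at 363 CPM in Micro Tim3-KD. In class II-low members of the Micro libraries it was at 34.1 and 11.3 CPM, and in macrophage-gene members it had no UMI in any of the 4 AT and Micro libraries. Flt3 was at 83.0 to 117 CPM in class II-high members of the 5 libraries that had them, and at 121 to 165 CPM in class II-low members of the 4 metastasis libraries, so that this gene of the rule was higher in the class II-low members. In macrophage-gene members Flt3 was at 10.8 CPM in Macro Ctrl, 1.27 CPM in Macro Tim3-KD and without a UMI in the other libraries.

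Macrophage-gene members entered through Clec10a. A Clec10a UMI was seen in 53 of the 54 macrophage-gene members of Macro Ctrl and in 74 of the 75 of Macro Tim3-KD, and a Flt3 UMI in 1 cell of each. Class II-high members had a Clec10a UMI in 25 of 41 and a Flt3 UMI in 28 of 41 cells in Macro Ctrl, and in 16 and 17 of 25 cells in Macro Tim3-KD. Background from free RNA was low, since at most 0.276% of neutrophils of any library had a UMI of a gene of the rule, at median depths of 4871 to 10103 UMIs against 7491 to 15213 in class II-high members. The lowest member scores were 1.501 to 1.654 and the highest scores outside 1.453 to 1.499 over the 6 libraries. Of the members between 1.5 and 2, class II-high cells were 39.4% in Micro Ctrl, 16.7% in Micro Tim3-KD, 18.6% in Macro Ctrl and 7.69% in Macro Tim3-KD, and of the cells between 1 and 1.5, 19.4%, 12.3%, 9.86% and 7.14%.

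The class II-high members were set beside the other dendritic cells of their libraries. Of the class II genes that define them, H2-Aa stood at 9410 and 9847 CPM in Micro Ctrl and Tim3-KD and at 7553 and 8541 CPM in Macro Ctrl and Tim3-KD, against 9508, 8385, 8463 and 8489 CPM in the type 1 cells of the same libraries. Neither the rule nor the limits used the next 3 genes. Cst3, which encodes the protease inhibitor cystatin C, was at 6936 to 9178 CPM in the 4 libraries, below the 21102 to 24234 CPM of type 1 cells and above the 1420 to 1910 CPM of plasmacytoid cells. The calcium-binding S100a4 was at 1339 to 2034 CPM against 60.2 to 433 CPM in type 1 cells. Tmem176b, a membrane protein gene, was at 283 to 577 CPM against 7.35 to 91.8 CPM. The ranges given here for Cst3, S100a4 and Tmem176b did not overlap. The share of all genes with this property was not counted, so it is no check of the label. S100a4 and Tmem176b were set here against type 1 cells only. Their ranges therefore do not set class II-high members apart from monocytes or macrophage-gene members. The S100a4 level of the macrophage-gene members of Micro Tim3-KD, given below, lay within the class II-high range.

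Against type 1 cells the class II-high members had, as the median over the 4 metastasis libraries and after adding 10 CPM to both sides, 7.79-fold more Ccl9, 6.23-fold more Ms4a4c and 4.12-fold more Ccr7, the receptor that guides dendritic cells to lymph nodes. Against monocytes they had 8.77-fold more of the class II loading gene H2-DMb2, 6.03-fold more Dpp4 and 5.30-fold more of the maturation marker Cd83. Against plasmacytoid cells they had 10.9-fold more of the transcription factor Batf3. Each of these genes was higher in 4 of 4 libraries. A high median over the same libraries makes such a count likely, and the share of all genes with it was not counted. These cells were chosen on class II and other genes of the same transcriptomes, so the folds are descriptive. Type 1 Clec9a was at 1.93 to 31.3 CPM in class II-high members and at 236 to 316 CPM in type 1 cells. The rule and the type 1 gate both used Clec9a, so this contrast follows from them. The plasmacytoid gene Siglech had no UMI in any member because the rule set it below 1.

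**Figure D2:**
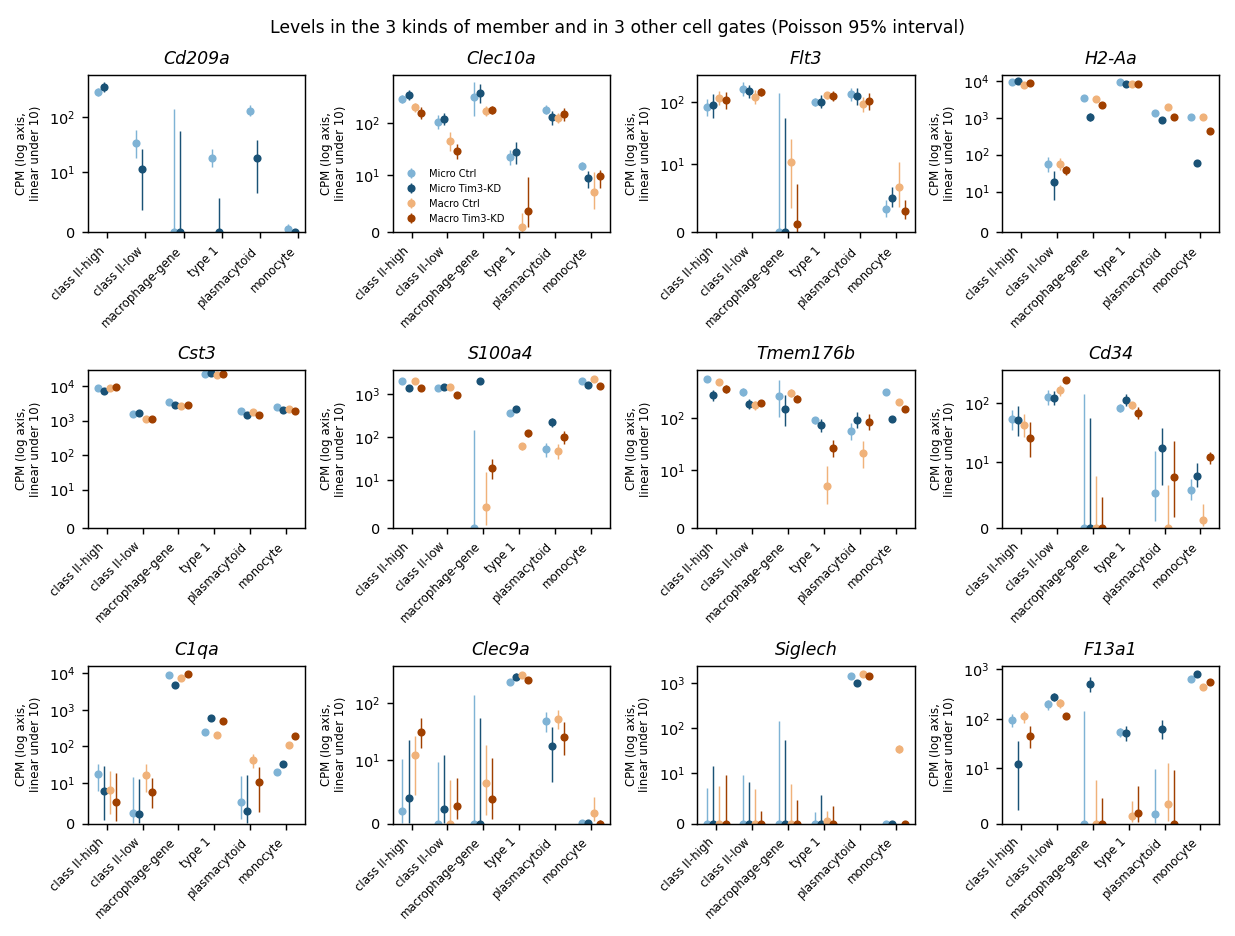
CPM (log axis, linear under 10) with the Poisson 95% interval for 12 genes in the 3 kinds of member and in type 1, plasmacytoid and monocyte cells of the 4 metastasis libraries, marked by colour. Levels are pooled over cells. The class II-high pools hold Cd209a, Clec10a, Flt3 and H2-Aa, genes that chose these cells. UMIs of both Clec10a and Flt3 were seen in 11 of 50 and 7 of 32 class II-high cells in Micro Ctrl and Tim3-KD. In Macro they were seen in 12 of 41 and 8 of 25. Class II-low members carry Flt3 and Cd34 with H2-Aa under 60 CPM, and macrophage-gene members carry Clec10a and C1qa (4684 to 9676 CPM) with Flt3 under 11 CPM. Cd209a was measured here in the Micro libraries.

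The share of members among CD45+ cells was compared first, to see whether these cells were more or less frequent with Tim3-KD tumour cells. As the rule found them, members were 12 of 1803 cells in AT Ctrl (0.666%, 0.344 to 1.16) and 8 of 542 in AT Tim3-KD (1.48%, 0.639 to 2.89). They were 84 of 5106 in Micro Ctrl (1.65%, 1.31 to 2.03) and 78 of 5142 in Micro Tim3-KD (1.52%, 1.201 to 1.89). They were 131 of 4913 in Macro Ctrl (2.67%, 2.23 to 3.16) and 166 of 5502 in Macro Tim3-KD (3.02%, 2.58 to 3.504). At each site the interval of the difference Tim3-KD minus Ctrl included 0: 0.810 points in AT (-0.068 to 2.25), -0.128 points in Micro (-0.618 to 0.359) and 0.351 points in Macro (-0.294 to 0.9895).

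Split by kind, the shares moved in different directions. Class II-high members were 50 of 5106 cells in Micro Ctrl (0.979%, 0.728 to 1.29) and 32 of 5142 in Micro Tim3-KD (0.622%, 0.426 to 0.877), a difference of -0.357 points (-0.715 to -0.0098). They were 41 of 4913 cells in Macro Ctrl (0.835%, 0.5995 to 1.13) and 25 of 5502 in Macro Tim3-KD (0.454%, 0.294 to 0.670), a difference of -0.380 points (-0.710 to -0.0730). In AT they were 8 of 1803 cells with Ctrl (0.444%, 0.192 to 0.872) and 0 of 542 with Tim3-KD, which allows a share of up to 0.554% by the limit of 3 counts and of up to 0.678% by the exact interval.

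The class II-high share was lower with Tim3-KD at both metastatic stages, but the size depended on the limits. With at least 100 class II UMIs per 10000, a limit added after seeing the data, there were 33 and 30 cells in Micro (0.646% and 0.583%), a difference of -0.0629 points (-0.376 to 0.247). In Macro there were 27 and 21 cells (0.550% and 0.382%), a difference of -0.168 points (-0.4495 to 0.0965). Most of the difference thus lay in class II-high members under this limit, which were 17 and 2 cells in Micro and 14 and 4 in Macro. The difference in Micro was -0.180 points with a score limit of 2 (upper bound 0.132), -0.335 points (-0.695 to 0.0149) without cells of a doublet score over 0.15 and -0.317 points (-0.877 to 0.259) as a share of the cells other than neutrophils. In Macro the interval stayed below 0 in each of these 3 settings, with differences of -0.308, -0.419 and -0.498 points. Among cells with UMIs of both Clec10a and Flt3 the difference was -0.0990 points in Micro (-0.295 to 0.0854) and -0.194 points in Macro (-0.394 to -0.0266).

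Class II-low members went the other way in Macro, with 36 Ctrl cells (0.733%, 0.514 to 1.01) and 66 Tim3-KD cells (1.1996%, 0.929 to 1.52), a difference of 0.467 points (0.0878 to 0.849). In Micro they were 29 cells (0.568%) and 37 cells (0.720%), a difference of 0.152 points (-0.164 to 0.472). Macrophage-gene members were rare in Micro, with 5 and 9 cells (0.0979% and 0.175%), and frequent in Macro, with 54 and 75 cells (1.10% and 1.36%). Between Micro and Macro of the Ctrl arm they differed by 1.00 points (0.714 to 1.34). Class II-high members differed by -0.145 points (-0.524 to 0.233) over the same step. The rule read 3 genes in Micro and 2 in Macro, so these differences between sites cannot be told apart from the difference in the rule.

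**Figure D3:**
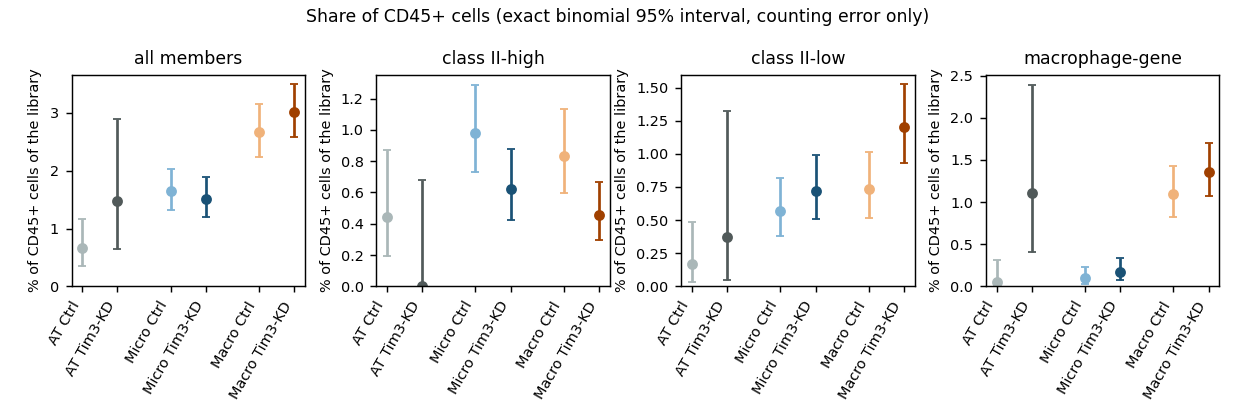
Share of the library's CD45+ cells (percent, vertical axis, each panel from 0) for all members and for each kind in the 6 libraries, with the exact binomial 95% interval. The class II-high share is lower in Tim3-KD than in Ctrl in Micro (0.979% and 0.622%) and Macro (0.835% and 0.454%), and the class II-low share is higher. In AT these shares rest on 8 and 0 class II-high and 3 and 2 class II-low cells. The interval of the difference included 0 for both kinds in AT and for the class II-low share in Micro.

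Among dendritic cells the picture depended on which members were counted. Members of every kind, class II-low and macrophage-gene cells included, made up 29.2% of members, type 1 and plasmacytoid cells together in Micro Ctrl. In Micro Tim3-KD they made up 41.7%, a difference of 12.5 points (3.78 to 21.3). In Macro they made up 38.4% and 58.0%, a difference of 19.6 points (11.8 to 27.1), and in AT 20.7% and 20.5%. Counting the class II-high members alone gave 19.7% and 22.7% in Micro (3.01 points, -5.11 to 11.8) and 16.3% and 17.2% in Macro (0.907 points, -6.42 to 8.97), and in AT 8 of 54 cells (14.8%) and 0 of 31, a difference of -14.8 points (-26.6 to -1.69). Type 1 cells were 133 and 67 in Micro (2.60% and 1.30% of CD45+ cells) and 144 and 79 in Macro (2.93% and 1.44%). Plasmacytoid cells were 71 and 42 in Micro and 66 and 41 in Macro. Class II-high, type 1 and plasmacytoid cells were all fewer in Tim3-KD than in Ctrl at both metastatic sites.

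Gene levels of Tim3-KD and Ctrl were compared within each site. A gene was compared when it had at least 50 UMIs over both libraries, and it is called higher or lower when its level differed by at least 2-fold. These calls rest on size alone. Over all members 39.8% of 133 genes were higher and 18% were lower in AT, 7.17% and 7.04% of 739 genes in Micro, and 6.34% and 4.68% of 1324 genes in Macro. The median gene stood 0.52 (log2) higher in AT Tim3-KD, where the members were 6 macrophage-gene and 2 class II-low cells against 8 class II-high, 3 class II-low and 1 macrophage-gene cell. Over all members, gene levels and the share of each kind cannot be told apart. In Macro, for example, H2-Aa was at 3494 and 1936 CPM in all members of Ctrl and Tim3-KD, while within the class II-high members it was at 7553 and 8541 CPM. The comparisons below are within each kind, in pools of 25 to 75 cells with 247690 to 1435982 UMIs. The makeup within a kind also differed, as the 17 and 2 class II-high cells under 100 class II UMIs per 10000 in Micro show.

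In class II-high members of Micro the presentation genes were within 2-fold of each other in Tim3-KD and Ctrl, and 5 of 9 genes of the monocyte list were lower in Tim3-KD, a count that fell to 1 of 6 with at least 100 class II UMIs per 10000. Of 304 genes compared, 8.22% were higher and 12.2% were lower. None of the 11 class II presentation genes compared was past 2-fold, and their median was 0.07 (log2). H2-Ab1 was at 6832 and 7885 CPM, Ctrl first here and below, and H2-Eb1 at 5931 and 6403 CPM. Both are among the class II genes that define these members, so their likeness follows in part from the limit. The genes of the rule chose the cells of both libraries, so their likeness follows in part from the selection and is a description. Their Tim3-KD over Ctrl ratios were 1.23 for Cd209a (0.938 to 1.61), 1.19 for Clec10a (0.904 to 1.57) and 1.07 for Flt3 (0.610 to 1.83). Mgl2, a lectin gene next of kin to Clec10a, had a ratio of 0.962 (0.644 to 1.41).

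Of 9 genes of the monocyte list, 5 were lower and none was higher in Micro Tim3-KD, with a median of -1.08 (log2). Fn1, which encodes fibronectin, had 121 UMIs from 19 of the 50 Ctrl cells and none in the 32 Tim3-KD cells, so it was at least 19.3-fold lower. With a score limit of 1 (63 and 41 cells) the log2 ratio of Fn1 was -1.02, and F13a1 (-0.95) and Fcgr1 (-0.24) were within 2-fold, while 5 of 10 genes of the list were lower. F13a1, a transglutaminase of monocytes, had 48 and 3 UMIs, a ratio of 0.131 (0.0261 to 0.406). Cd14, the co-receptor for lipopolysaccharide, was at 619 CPM (553 to 691) and 291 CPM (227 to 366), with log2 ratios of -0.57 among cells with UMIs of both Clec10a and Flt3 and -0.95 as a mean over cells. Fcgr1, the high-affinity IgG receptor, was at 98.4 and 28.3 CPM. The monocyte recruitment receptor Ccr2 was at 521 and 323 CPM, a ratio of 0.620 (0.477 to 0.798). Chil3 had 120 UMIs from 12 cells in Ctrl and 6 UMIs from 1 cell in Tim3-KD, but among cells with UMIs of both Clec10a and Flt3 (13 and 8 cells) its log2 ratio was 5.07, in the opposite direction. The members' UMIs of the whole monocyte list had a median of 22.7 per 10000 in Ctrl and 15.3 in Tim3-KD. The 17 Ctrl cells under 100 class II UMIs per 10000 had a median of 60.3 and a highest value of 207.6 of these UMIs, and the 33 other Ctrl cells a median of 18.6 and a highest value of 76.4. With at least 100 class II UMIs per 10000 (33 and 30 cells), 1 of 6 genes of the list was lower, the median was -0.53 (log2), Fn1 had 51 UMIs and none, and the log2 ratio was -0.56 for Cd14.

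Of 8 sensing receptors compared, 5 were lower and 1 was higher in Micro Tim3-KD, with a median of -1.05 (log2). The inhibitory lectin gene Clec4a3 was at 216 and 80.7 CPM (ratio 0.374, 0.220 to 0.605), and Clec4e, the receptor Mincle, at 92.6 and 40.4 CPM. The other lower ones were Fcgr1, Cd14 and the mannose receptor gene Mrc1. Clec4n, which encodes Dectin-2, was higher, at 54.0 and 141 CPM. Taken as the mean over cells instead of the pooled sum, 2 of the 8 were lower and 1 was higher. With a score limit of 1, 3 of 10 were lower and none was higher, with a median of -0.44. Clec4n was within 2-fold in 3 of the 9 settings tried, with log2 ratios of 0.91, 0.65 and 0.28. With at least 100 class II UMIs per 10000, 2 of 4 receptors were lower and 1 was higher, and Clec4e had a log2 ratio of 0.042 on 24 UMIs.

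Of 10 cytokine and chemokine genes compared in these cells, 1 was higher, 3 were lower and 6 were within 2-fold, with a median of -0.12 (log2). Tnf was higher in Micro Tim3-KD, at 61.7 CPM (42.2 to 87.2) and 303 CPM (238 to 380), which is 4.90 times as much (3.202 to 7.67). Its UMIs came from 11 of 50 cells in Ctrl and from 22 of 32 in Tim3-KD, and the ratio was 6.89 without the cell that held most of them in each library. Il1b was lower, at 2149 and 969 CPM (ratio 0.451, 0.390 to 0.519), with a log2 ratio of -0.72 among cells with UMIs of both Clec10a and Flt3. The monocyte-attracting Ccl2 was at 147 and 56.5 CPM (ratio 0.385). With at least 100 class II UMIs per 10000 the log2 ratio was 1.81 for Tnf, -1.29 for Il1b and -0.89 for Ccl2. The chemokine gene Ccl24 had 145 UMIs in Ctrl, 81 of them in 1 cell, and 1 UMI in Tim3-KD. The chemokine gene Ccl4 was at 1947 and 3403 CPM, a ratio of 1.75 (1.59 to 1.92).

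Of 21 immediate early and stress genes, 4 were higher and none was lower in Micro Tim3-KD. With a score limit of 1, 4 of 22 were higher and 3 were lower. The 4 higher genes were Dusp2, a phosphatase of MAP kinases, at 42.4 and 137 CPM, the transcription factor Klf2 at 110 and 262 CPM, the NF-kappaB regulator Nfkbiz at 183 and 436 CPM (ratio 2.38, 1.79 to 3.17), and Ppp1r15a, of the integrated stress response, at 386 and 816 CPM. The transcription factor Bhlhe40 was at 228 and 521 CPM, a ratio of 2.29 (1.77 to 2.96), and the integrin gene Itgax (CD11c) at 84.9 and 198 CPM. Klf2 was within 2-fold among cells with UMIs of both Clec10a and Flt3 (log2 ratio 0.50), and Ppp1r15a as a mean over cells (0.86). With at least 100 class II UMIs per 10000, 1 of the 20 genes of the list was higher (Klf2), and Nfkbiz (0.98), Ppp1r15a (0.72), Bhlhe40 (0.96) and Itgax (0.71) were within 2-fold.

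Ltb, which encodes lymphotoxin beta, was at 114 CPM (86.7 to 147) in Micro Ctrl and 28.3 CPM (11.4 to 58.2) in Micro Tim3-KD, a ratio of 0.248 (0.0957 to 0.544). The interferon-stimulated gene Epsti1 was at 239 and 48.4 CPM, but its log2 ratio was -0.44 with a score limit of 2 and -0.70 among cells with UMIs of both Clec10a and Flt3, while 11 of the 12 interferon-stimulated genes compared were within 2-fold. None of 6 maturation genes was past 2-fold, Cd83 among them at 465 and 287 CPM. Havcr2 encodes TIM3 and lies on the plus strand of chromosome 11 from 46454935 to 46481255. This gene, which the knockdown targeted in the tumour cells and not in these host cells, was at 81.0 CPM (58.4 to 110) and 40.4 CPM (19.4 to 74.2), a ratio of 0.498 (0.223 to 1.01) over 52 UMIs in all. Its log2 ratio after adding 0.5 UMI to each side was -0.95, within 2-fold, and it was past 2-fold in 4 of the 9 settings tried.

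In class II-high members of Macro the presentation genes were again within 2-fold, and genes of cell division were higher in Tim3-KD through few cells. Of 219 genes compared, 9.13% were higher and 7.76% were lower. None of 9 class II presentation genes was past 2-fold, with a median of 0.02 (log2): H2-Ab1 was at 5214 and 4802 CPM and H2-Eb1 at 4403 and 4010.5 CPM. Clec10a had a ratio of 0.764 (0.543 to 1.07) and Flt3 of 0.912 (0.595 to 1.39). As in Micro, H2-Ab1, H2-Eb1, Clec10a and Flt3 helped to choose the cells, so their likeness follows in part from the selection. All 8 genes of mitosis and replication compared were higher, with a median of 2.95 (log2). Ube2c, a ubiquitin-conjugating enzyme of mitosis, had 3 UMIs against 183 from 4 cells of Tim3-KD. The proliferation marker Mki67 had 9 UMIs from 2 cells and 56 UMIs from 4 cells, and Top2a, the topoisomerase of dividing cells, 10 and 71 UMIs from 4 cells each. Over 10 UMIs per 10000 of the list were seen in 1 of 41 cells in Ctrl (2.44%) and in 4 of 25 in Tim3-KD (16.0%). After thinning to 5000 UMIs per cell the counts were 1 of 39 (2.56%, 0.0649 to 13.5) and 4 of 24 (16.7%, 4.74 to 37.4), with overlapping intervals. With at least 100 class II UMIs per 10000 (27 and 21 cells), 2 of these genes could be compared and 1 of them was higher, and Ube2c had 2 and 20 UMIs.

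Lower in Macro Tim3-KD were Ltb, at 233 CPM (192 to 280) and 80.9 CPM (55.0 to 115) (ratio 0.348, 0.226 to 0.522), and Lyz2, the lysozyme gene of myeloid cells, at 4998 and 2042 CPM (ratio 0.409, 0.376 to 0.443). Lyz2 and F13a1 were the 2 lower genes of 10 compared from the monocyte list, the other 8 were within 2-fold, and the median was -0.24 (log2). The log2 ratio of Lyz2 was -0.97 with a score limit of 1. In Macro Ctrl 5 class II-high members with only 29.0 to 48.2 class II UMIs per 10000 had 241 to 606 monocyte list UMIs per 10000, against a median of 42.1, and with at least 100 class II UMIs per 10000 the log2 ratio of Lyz2 was -0.63 and none of 7 genes of the list was past 2-fold. Lst1, a gene of leukocytes, was at 552 and 232 CPM and F13a1 at 111 and 44.4 CPM. Itgax was at 98.8 and 47.0 CPM, but it was within 2-fold in 5 of the 9 settings tried, with log2 ratios from -0.99 to -0.54. Of 170 Saa3 UMIs in Tim3-KD, 164 came from 1 cell. Tnf was at 18.5 CPM (8.47 to 35.2) and 31.3 CPM (16.2 to 54.7) in Macro, on 9 and 12 UMIs. Ccl4 was at 735 and 1394 CPM, a ratio of 1.90 (1.66 to 2.18). Havcr2 was at 41.2 CPM (25.1 to 63.6) and 54.8 CPM (33.9 to 83.8), so the order of Ctrl and Tim3-KD was not that of Micro.

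Few differences recurred. Of 175 genes compared at both sites in class II-high members, 4 were lower in both (F13a1, Ltb, Mrc1 and Ncoa7), 2 were higher in both (H1f5 and Stmn1, of which Stmn1 was within 2-fold in Macro in 2 of 9 settings, with log2 ratios of 0.43 and 0.19) and 5 were past 2-fold in opposite directions (Agpat4, Cd81, Ctsl, Cxcr4 and Itgax, of which Itgax did not hold its call in Macro). F13a1 was within 2-fold in Micro with a score limit of 1 (log2 ratio -0.95) and in Macro among cells with UMIs of both Clec10a and Flt3 (-0.75). In Micro 11 of the 175 were higher and 20 lower, and in Macro 9 were higher and 13 lower. Ltb was lower in Tim3-KD at both sites in every setting tried, and with at least 100 class II UMIs per 10000 its log2 ratio was -1.96 in Micro, on 48 UMIs, and -1.75 in Macro.

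**Figure D4:**
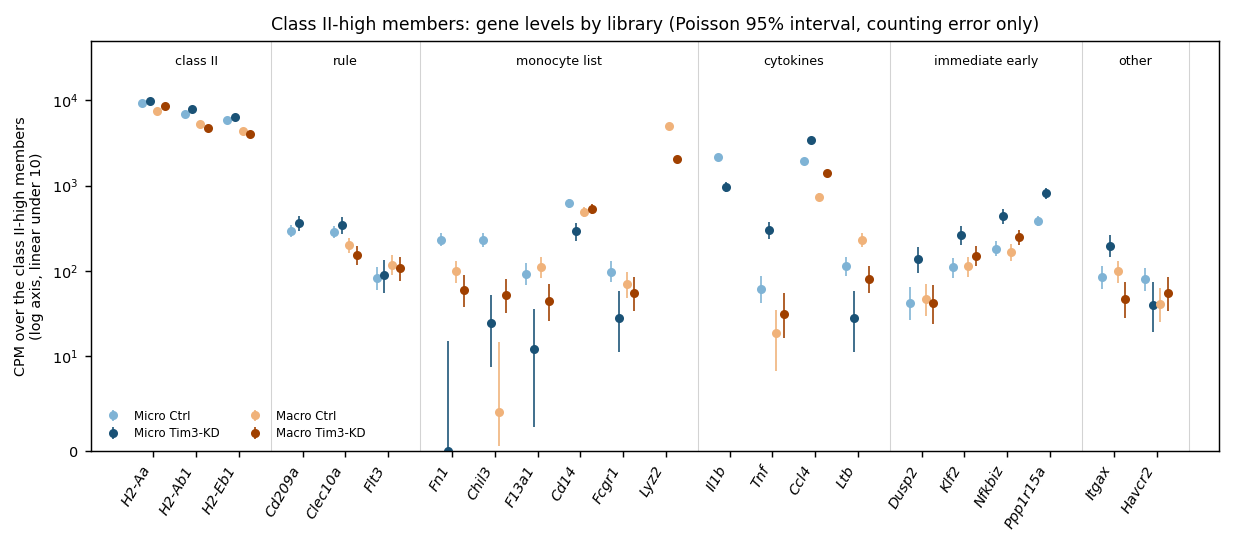
CPM over the class II-high members (log axis, linear under 10) for genes grouped by role, in the 4 metastasis libraries marked by colour, with the Poisson 95% interval. Class II genes and the genes of the rule lie close together in Ctrl and Tim3-KD of a site, but these genes chose the cells. Fn1 and F13a1 are low in Micro Tim3-KD (0 and 12.1 CPM), Tnf is highest there (303 CPM), and Ltb is lower in Tim3-KD at both sites.

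Across stages of the Ctrl arm, class II-high members of Macro (day 12) were compared with those of Micro (day 3). The stage and the day cannot be told apart. Of 243 genes in both matrices, 1.23% were higher and 14.4% were lower in Macro, and the median gene stood at -0.25 (log2). Ltb was higher, at 114 and 233 CPM (ratio 2.04, 1.48 to 2.85), though its log2 ratio was 0.73 to 1.27 over the settings tried and under 1 in 5 of 9, and the gut-homing integrin gene Itgb7 was at 160 and 259 CPM (ratio 1.62, 1.22 to 2.16). Lower were the immediate early genes Egr1, at 295 and 80.3 CPM, and Ier3, at 567 and 200 CPM, and the chemokine genes Ccl4, at 1947 and 735 CPM, and Ccl24, at 280 and 26.8 CPM. Chil3 had 120 UMIs in Micro and 2 in Macro. Among cells with UMIs of both Clec10a and Flt3, Egr1 (log2 ratio -0.26), Chil3 (-0.26) and Ccl4 (-0.72) were within 2-fold. H2-Aa had a ratio of 0.803 (0.769 to 0.838), close to the shift of the median gene. Over all members 20.7% of 704 genes were higher and 7.53% were lower in Macro, and 14 of the 16 macrophage genes compared were among the higher ones, as macrophage-gene members went from 5 to 54 cells. Over all members of Micro against AT in the Ctrl arm, 24.3% of 358 genes were higher and 7.82% were lower, with the median gene at 0.33 (log2) and only 12 members in AT.

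Class II-low members were a mixture. Over 10 UMIs per 10000 of the progenitor list were seen in 9 of 29 and 12 of 37 cells in Micro and in 11 of 36 and 38 of 66 in Macro, and of the monocyte list in 16 of 29, 21 of 37, 28 of 36 and 56 of 66. Against all other cells of a library they had, as the median over the 4 metastasis libraries, 10.2-fold more Ctla2a, 6.10-fold more of the stem cell marker Cd34 and 5.41-fold more of the transcription factor Sox4. Cd34 was at 126 and 124 CPM in Micro Ctrl and Tim3-KD and at 166 and 246 CPM in Macro Ctrl and Tim3-KD, and H2-Aa at 18.1 to 56.0 CPM. A Flt3 UMI was seen in 17 of 29 and 27 of 37 cells in Micro and in 25 of 36 and 53 of 66 cells in Macro. In Macro Ctrl the cells without a Flt3 UMI had no UMI of Cd34, Sox4 or Mpo and carried Lyz2 at 22368 CPM, against 1790 CPM in the cells with Flt3. In Micro Tim3-KD the cells with a Flt3 UMI had Chil3 at 1997 CPM and a median of 60.2 monocyte list UMIs per 10000.

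In Macro, class II-low members of Tim3-KD held more transcripts of cell division and of Mpo, a granule gene of myeloid progenitors, than those of Ctrl. Of 542 genes compared, 11.4% were higher and 7.38% were lower. Of 20 genes of mitosis and replication 14 were higher and none was lower, with a median of 1.47 (log2). Mki67 was at 41.1 CPM (25.8 to 62.2) and 194 CPM (172 to 218), a ratio of 4.71 (3.05 to 7.64), with UMIs from 6 of 36 and 25 of 66 cells. Top2a was at 67.3 and 251 CPM (ratio 3.73, 2.64 to 5.41), and Rrm2, of nucleotide synthesis, had 1 and 70 UMIs.

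The median depth of these cells was 11172 UMIs in Macro Ctrl and 19587.5 in Macro Tim3-KD. Over 10 UMIs per 10000 of the mitosis list were seen in 4 of 36 cells (11.1%) and 28 of 66 cells (42.4%). After each cell was thinned to 5000 UMIs, which left out 1 and 2 shallower cells, the counts were 5 of 35 (14.3%, 4.81 to 30.3) and 29 of 64 (45.3%, 32.8 to 58.3), and the intervals did not overlap. A doublet score over 0.15 was found in none of the Ctrl and 7 of the Tim3-KD class II-low cells of Macro, and without them 15 of the 20 genes were higher.

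Of 10 progenitor genes 5 were higher and none was lower, with a median of 0.93 (log2). Mpo, which encodes the granule enzyme myeloperoxidase, was at 125 CPM (97.0 to 159) and 717 CPM (674 to 762), a ratio of 5.73 (4.47 to 7.45). The granule protease genes Prtn3 and Ctsg were at 417 and 939 CPM and at 331 and 726 CPM. Of 196 Elane UMIs in Tim3-KD, 164 came from 1 cell. The transcription factor Myb was at 44.8 and 109 CPM. Cd34 had a ratio of 1.48 (1.17 to 1.89) and Flt3 of 1.204 (0.908 to 1.62). These calls depended on the setting. With a score limit of 1, 2 of 11 progenitor genes were higher (median 0.51), with a limit of 2, 2 of 8 (median 0.51), and without members carrying T, NK, B or neutrophil genes 1 of 9. Ctsg and Prtn3 were within 2-fold in each of these 3 settings, and Mpo and Elane were past it in all 9 tried, with log2 ratios of 1.16 to 4.14 and of 1.29 to 5.02. Myb was within 2-fold with a score limit of 1 (0.92) and without members carrying T, NK, B or neutrophil genes (0.89). Over 10 UMIs per 10000 of the progenitor list, at 5000 UMIs per cell, were seen in 10 of 35 cells (28.6%, 14.6 to 46.3) and 37 of 64 cells (57.8%, 44.8 to 70.1), with overlapping intervals.

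Lower in these cells were the myeloid genes Lyz2, at 6241 and 1882 CPM (ratio 0.301, 0.286 to 0.317), Lst1, at 327 and 109 CPM, and the chemokine gene Ccl6, at 441 and 118 CPM. Among the cells with a Flt3 UMI Lyz2 was at 1790 and 1228 CPM, within 2-fold, and among the 11 and 13 cells without one at 22368 and 7693 CPM. Of 13 genes of the monocyte list 3 were lower and none was higher, with a median of -0.58 (log2). As a mean over cells, 2 were higher and 1 was lower, with a median of 0.0014. With a score limit of 1, none of 14 was past 2-fold and the median was -0.34, and Lyz2 (-0.99) and Lst1 (-0.61) were within 2-fold. The interferon-induced chemokine gene Cxcl10 was higher, with 8 and 95 UMIs. All 179 Gzma UMIs of Ctrl came from 1 cell. Over 20 UMIs per 10000 of T and NK cell genes were seen in 5 of 36 and 4 of 66 class II-low cells of Macro, and in 2 of 29 and 5 of 37 of Micro.

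In Micro the mitosis genes of class II-low members gave a like direction on fewer cells. Of 192 genes compared at both sites, 6 were higher in both and 2 were lower in both. Past 2-fold in opposite directions were 5 (Ccl2, Ccl5, Ccl6, Cd3g and Gzma). Of 8 progenitor genes compared in Micro 2 were higher (Ctsg and Prtn3), and Mpo was within 2-fold. The monocyte list had a median of 0.045 (log2) in Micro. Of 273 genes compared, 8.42% were higher and 11% were lower. Of 9 mitosis genes 5 were higher and none was lower, with Mki67 at 28.9 and 122 CPM (ratio 4.23, 2.19 to 8.97) from 4 of 29 and 7 of 37 cells, and Top2a at 39.4 and 215 CPM (ratio 5.46, 3.15 to 10.1). The thinned counts over 10 UMIs per 10000 were 5 of 25 cells (20.0%, 6.83 to 40.7) and 11 of 32 cells (34.4%, 18.6 to 53.2), with overlapping intervals, and with a score limit of 2, which left 14 and 21 cells, the log2 ratio was -0.61 for Top2a and 0.53 for Mki67. Among cells with UMIs of both Clec10a and Flt3 these were 0.43 and 0.38, and 2 of 17 mitosis genes were higher. Of 20 immediate early genes 6 were lower, among them Atf3, at 1058 and 292 CPM, and Fos, at 1297 and 561 CPM. With a score limit of 2, 3 of 14 were higher and 1 was lower, with a median of 0.19 (log2), and the log2 ratio of Fos was -0.22. Fos was also within 2-fold with a score limit of 1 (-0.87) and as a mean over cells (-0.44), and Atf3 among cells with UMIs of both Clec10a and Flt3 (-0.66). Chil3 was at 365 and 1668 CPM, and Tgm2 at 270 and 22.6 CPM. Cd34 had a ratio of 0.988 (0.658 to 1.49).

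**Figure D5:**
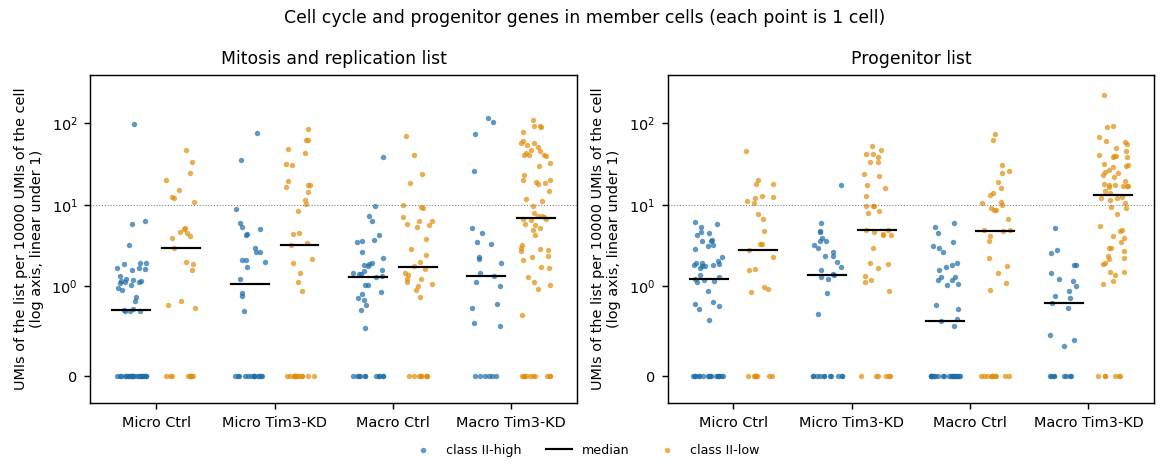
UMIs of the mitosis and replication list (left) and of the progenitor list (right) per 10000 UMIs of each cell (log axis, linear under 1) in class II-high and class II-low members of the 4 metastasis libraries, with the median as a bar and a dotted line at 10. The lists held other genes in Micro than in Macro, so libraries are read within a site: in Macro, 28 of 66 class II-low cells of Tim3-KD and 4 of 36 of Ctrl lie above the line for mitosis, as do 4 of 25 and 1 of 41 class II-high cells.

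Macrophage-gene members were chosen on Clec4f, Cd5l, Vsig4 and other macrophage genes, so high levels of these are no finding. Against monocytes, as the median over the 3 libraries with at least 9 of them, they had 123-fold more Slc40a1, the iron exporter ferroportin, 77.3-fold more of the folate receptor gene Folr2 and 60.99-fold more of the ficolin gene Fcna, which the limit did not use. These folds compare cells chosen on the same transcriptomes and are descriptive. Those of Micro Tim3-KD stood apart: Clec4f was at 106 CPM in these 9 cells, against 6317, 6282 and 7149 CPM in Micro Ctrl, Macro Ctrl and Macro Tim3-KD, while C1qa was at 4684 CPM and S100a4 at 2009 CPM. Their class II level was lower than that of class II-high members, with a median of 83.3 UMIs per 10000 in Macro Ctrl and 48.0 in Macro Tim3-KD.

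In Macro, 2.84% of 458 genes were higher and 2.4% were lower in macrophage-gene members of Tim3-KD. Ccl4 was lower, at 993 CPM (904 to 1087) and 175 CPM (147 to 207), which is not the direction found in the class II-high members. The anti-inflammatory cytokine gene Il10 was at 158 and 39.3 CPM (ratio 0.2496, 0.158 to 0.385) and the interferon-stimulated gene Rsad2 at 408 and 112 CPM (ratio 0.274). Higher were the adhesion gene Vcam1, at 494 and 1150 CPM, the complement factor B gene Cfb, at 64.7 and 171 CPM, and Ms4a6d, at 192 and 421 CPM, but with a score limit of 1 their log2 ratios were 0.97, 0.88 and 0.77. Of 2739 Saa3 UMIs in Tim3-KD, 2724 came from 1 cell.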

How the data were processed

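CD45+ cells were profiled as droplets with UMIs (10x Genomics) in 6 libraries. The authors trimmed reads with Trim Galore 0.4.3, mapped them with STAR 2.7.7a to GRCm38, counted UMIs over exons and introns, filtered cells by UMIs, genes and mitochondrial share, removed doublets and deposited 1 matrix per site of scaled scores (capped at 10) of a part of the genes. Scores were inverted to UMIs with each gene's centring, scaling and depth terms, read from the cells that lack it. The result was whole to within 0.05 for 99.9971% to 99.9999% of values, and the 0.144% to 0.160% of detected values at the cap are minima. This step was checked on simulated counts. Totals cover all genes, so CPM are over all UMIs of a cell. The matrices held 11.3% to 14.7% of the UMIs.

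UMIs were summed over the members of a library (Python 3.11.15, numpy 2.4.6, scipy 1.17.1, pandas 2.3.3). Intervals are exact Poisson for levels, exact conditional binomial for ratios, Clopper-Pearson for shares and Newcombe for differences of shares. Features naming several genes, the genes they name and pseudogenes were left out, since their counting differed between the libraries of a site. Calls needed 50 UMIs over both libraries and 2-fold, with 0.5 UMI added to each sum. Type 1 cells had a mean score above 1.5 of those of Xcr1, Clec9a, Wdfy4 and Naaa that their matrix held. These were Clec9a, Wdfy4 and Naaa in AT and Micro, and Xcr1, Clec9a and Naaa in Macro. Plasmacytoid cells had Siglech at or above 1 with a mean score of their markers above 1. Monocytes had a mean score of their markers above 1. Doublet scores came from scanpy 1.11.5 (scrublet). Thinning was to 5000 UMIs.

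Members, gene lists and the rule for named genes were chosen with earlier results of these data known. Named were the genes of the rule, Havcr2, the 3 most abundant genes of each list with its 2 highest and 2 lowest ratios, and the 6 highest and 6 lowest ratios of each comparison (100 UMIs or more), within each kind of member too. Mki67 and Top2a in class II-high members of Macro, F13a1 and Clec4e in those of Micro, Mki67 in class II-low members of Micro, Myb and Cd34 in class II-low members of Macro, and genes past 2-fold at both sites fell outside it and were chosen after their values were seen, as were the 3 kinds. No test between groups was made because each group was 1 library. Alternatives were other score limits, doublet and depth filters, a limit on UMIs, other scaling and minimum counts, and the subsets given below.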

Additional observations from a re-analysis of the deposited data

How the results depend on the processing

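The sample labels gave 1 library per group. No paired analysis was possible because each group was 1 library and the labels gave no replicate numbers. The limit of 100 class II UMIs per 10000 and the settings "class II-high members only", "without macrophage-gene members" and "without members carrying T, NK, B or neutrophil genes" were chosen after seeing the data. Of the differences in share, AT turned from 0.810 to -0.610 points when cells were chosen by a UMI of both Clec10a and Flt3 (UMI gate), to -0.444 with class II-high members only and to -0.241 without macrophage-gene members. In Micro the members were 84 of 5106 Ctrl and 78 of 5142 Tim3-KD cells as found. The order turned with the UMI gate (24 and 38 members) and with a score limit of 2 (51 and 54 members). Macro went from 0.351 to 1.196 points with a score limit of 1 and to -0.380 with class II-high members only. Macro had 88 and 101 members with a score limit of 2, and 77 and 91 without macrophage-gene members. Among dendritic cells AT went from -0.177 to -19.3 points and Macro from 19.6 to 9.91 with the UMI gate. Class II-high members only gave -14.8 in AT, 3.01 in Micro and 0.907 in Macro.

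Counts of genes past 2-fold over all members moved mostly with the minimum. With 50, 20, 100 or no minimum they were 77, 186, 33 and 2351 in AT, 105, 262, 45 and 650 in Micro, 146, 245, 77 and 444 in Macro, 115, 329, 50 and 827 for Micro over AT and 199, 351, 111 and 535 for Macro over Micro. A score limit of 1 gave 194 in AT, and a limit of 2 gave 48 in AT, 68 in Micro and 66 for Micro over AT. Class II-high members only gave 62 in Micro, 37 in Macro, 69 for Micro over AT and 38 for Macro over Micro. Without macrophage-gene members there were 50 in AT and 69 for Macro over Micro, and the UMI gate gave 51 for the last. The cause was not tested. The UMI gate left no AT Tim3-KD member and gave no gene value there. Of 63 gene values past 2-fold within a kind, 29 stayed so in every alternative. Reversed were Chil3 (log2 ratio 5.07, class II-high, Micro) and Saa3 (-0.24, class II-high, Macro) with the UMI gate and Top2a (-0.61, class II-low, Micro) with a limit of 2. Pools of 25 to 75 cells limit every gene value, and low genes rest on 1 to 4 cells.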
